A study of Homo sapiens with 6 samples.

Results

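The genes described here encode 9 folding proteins of the endoplasmic reticulum (ER) and the transcription factor XBP1. They were taken by symbol from the deposited gene table, where 10 of 10 were found among 19655 genes: HSPA5, HYOU1, DNAJB9, SDF2L1, HSP90B1, CALR, CANX, PDIA3, PDIA4 and XBP1. Secreted and membrane proteins fold in the ER lumen, where the Hsp70 chaperone HSPA5 (BiP) binds unfolded chains, the lectins CALR and CANX hold glycoproteins, and disulfide isomerases join cysteines. When unfolded protein builds up, the unfolded protein response is started by 3 membrane sensors, ERN1 (IRE1), EIF2AK3 (PERK) and ATF6. IRE1 splices XBP1 mRNA so that it encodes an active factor, and XBP1 and ATF6 then raise transcription of ER chaperone genes, while PERK slows translation and favours ATF4.

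Total RNA was sequenced from the established human colorectal carcinoma line HCT116, as labelled, grown in DMEM with 10% foetal bovine serum. One group of 3 libraries is a control with no SNORA67 knockdown (NC), and the other group of 3 was transfected with an antisense oligonucleotide against the small nucleolar RNA SNORA67 (ASO). How the control cells were treated, the dose and the harvest time are not stated in the labels. Whether replicates were separate cultures is not stated either, so each p-value reflects the spread among libraries that may be technical repeats. The series asks how SNORA67 acts in colorectal cancer cells.

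Library totals ran from 49136502 to 54905215 estimated counts. SNORA67 itself was not analysed here, and its host gene EIF4A1 stood at 617 ± 46.3 CPM in ASO against 1544 ± 55.3 CPM in NC (SD, n = 3 each). CPM are counts scaled by TMM to a library total of 1e6. Of 16 colon epithelial markers, KRT8 and KRT18 reached 10 CPM or more on average in NC. There 10 lay under 1 CPM, among them CDX2 and VIL1, and EPCAM and CDH1 stood at 4.37 and 1.06 CPM. The 16 summed to 1929 to 2222 CPM in NC and 1675 to 2203 CPM in ASO, mostly from KRT8 and KRT18. LGALS4 and VIL1 averaged 18.05 and 8.88 CPM in ASO against 0.0066 and 0.067 CPM in NC. VIL1 varied from 1.12 to 14.6 CPM over the ASO libraries. KRT19 and CDH1 averaged 1.66 and 1.81 CPM in ASO against 0.0503 and 1.06 CPM in NC. KRT8, EPCAM, CDX2, CLDN3 and GPA33 were lower on average in ASO, and the other epithelial markers were higher. Summed over 11 fibroblast and mesenchymal markers, levels were 2366 to 2699 CPM in NC and 3239 to 3852 CPM in ASO. VIM was the highest of these in NC, at 1201 CPM, and stood at 1290 CPM in ASO. COL5A1, COL1A1 and FN1 were higher on average in ASO (1280.0, 374 and 413 CPM against 612, 160.3 and 226 CPM in NC), while PDGFRB, THY1, LUM, DCN and FAP were lower on average. Blood and endothelial markers summed to 10.3 to 12.1 CPM in NC and 17.0 to 23.2 CPM in ASO, with PTPRC and CD3E at 0 in all 6 libraries. In bulk RNA, fewer cells of a type and less RNA per cell cannot be told apart, and the part of these markers in the results below was not tested.

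Transcripts of the ER folding genes were less abundant in ASO than in NC, whereas XBP1 was higher on average. Summed over the 9 folding genes, the level was 7060.3, 7247 and 6872 CPM in NC replicates 1 to 3 and 5074, 5219 and 5076 CPM in the ASO replicates, a ratio of 0.726 between the group means. All 10 genes passed the filter on low counts. At an adjusted p under 0.05 in the quasi-likelihood test of edgeR, adjusted over all genes tested, 7 of the 10 were called lower, 1 was called higher and 2 were not called. Over all 14062 genes tested, 19.1% were called lower and 26.8% higher. The members were chosen with earlier results of these data known, so their larger share of lower calls is a description and not a test against this background. Among the 9103 genes at a mean of 10 CPM or more, 24.2% were called lower and 21.2% higher. The median log2 fold change was -0.47 for the 10 genes, 0.013 for all genes tested and -0.086 for those at a mean of 10 CPM or more. For 8 of the 10, every ASO library lay below every NC library, which held for 25.9% of all genes. Every ASO library above every NC library, seen in 31.6% of all genes, was found for 0 of the 10.

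**Figure D1:**
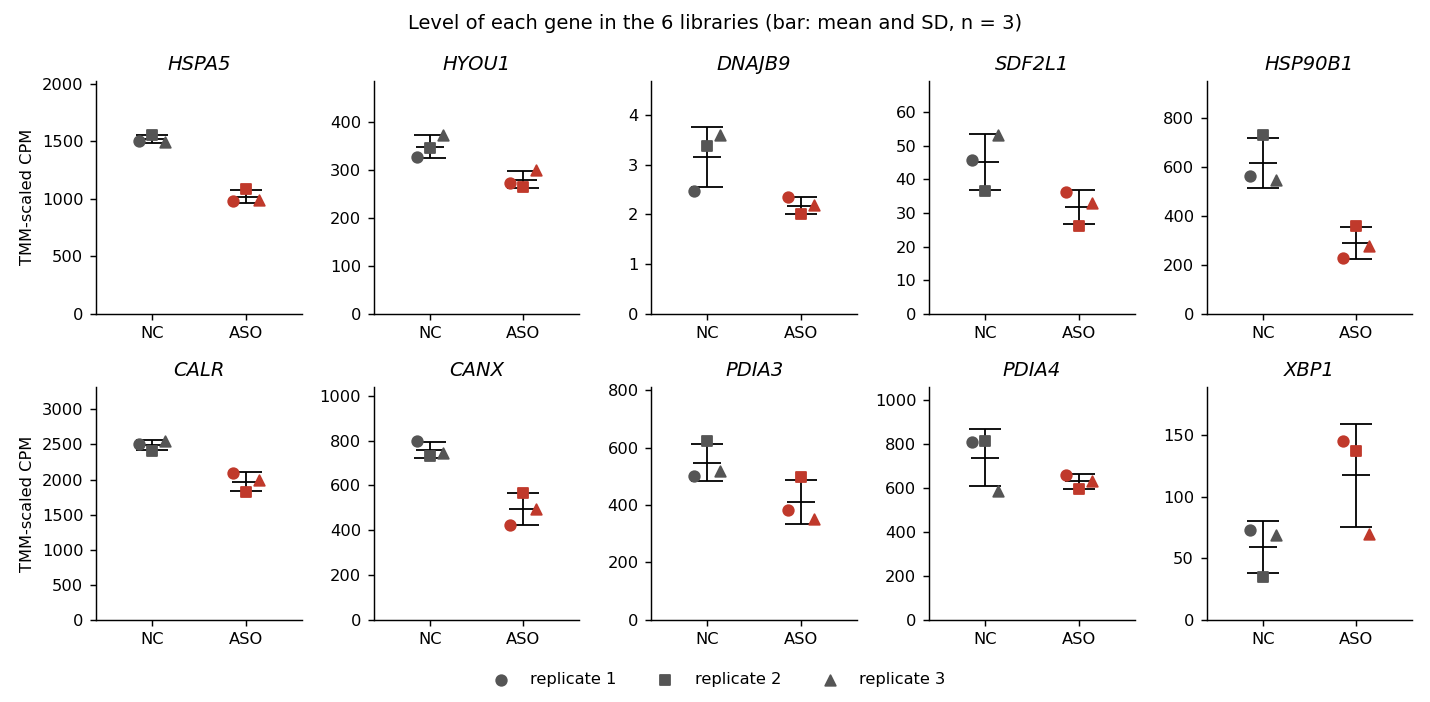
TMM-scaled CPM of each gene in the 3 NC and 3 ASO libraries, with 1 panel per gene, an axis from 0, marker shapes for replicate numbers and bars for the mean and SD. The groups are apart in 8 panels, and those of PDIA4 and XBP1 overlap.

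Scaled to gene length, CALR was the most abundant of these transcripts in NC. It stood at 917 ± 27.3 CPM per kilobase of exon, followed by HSPA5 at 388 ± 8.64 and PDIA4 at 224 ± 39.6 CPM per kilobase (SD, n = 3). HSP90B1, PDIA3 and CANX came next at 131 ± 21.7, 129 ± 15.5 and 122 ± 5.77 CPM per kilobase, and these neighbours did not differ beyond their spread. HYOU1 and SDF2L1, at 45.4 ± 3.03 and 41.2 ± 7.58 CPM per kilobase, did not either, but with the longest transcript as length they were apart by more than their spread, at 77.0 ± 5.14 and 52.4 ± 9.64 CPM per kilobase. XBP1 had 19.5 ± 7.02 and DNAJB9 1.11 ± 0.211 CPM per kilobase. In ASO the first 3 places were unchanged, while HSP90B1 went from the fourth to the sixth place at 61.3 ± 14 CPM per kilobase and XBP1 from the ninth to the seventh at 38.7 ± 13.7 CPM per kilobase, within its spread of HYOU1 at 36.3 ± 2.32. With the longest transcript as length, XBP1 was the eighth in ASO, at 54.0 CPM per kilobase below HYOU1 at 61.7. CALR alone made up 45.9 ± 2.19% of the per-kilobase sum of the 9 folding genes in NC and 49 ± 3.01% in ASO. The share of HSP90B1 was 6.53 ± 0.978% in NC and 4.14 ± 0.975% in ASO.

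HSPA5, the Hsp70 of the ER lumen and a repressor of the 3 stress sensors at rest (chromosome 9, 125234853 to 125241382 in hg38), fell in ASO. Its level was 1501, 1557 and 1495 CPM in NC replicates 1 to 3 and 977, 1084 and 990.4 CPM in the ASO replicates. The groups were wide apart and each was tight. The fitted fall was 1.49-fold, a log2 fold change of -0.58 with a 95% interval from -0.74 to -0.41 (edgeR adjusted p = 0.000519).

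Among the proteins that work with HSPA5, HYOU1 and SDF2L1 fell as well. HYOU1 (GRP170), which helps HSPA5 to exchange nucleotide (chromosome 11, 119044188 to 119057227), was at 327, 346 and 374 CPM in NC and 273, 265 and 299.5 CPM in ASO. Every ASO library was below every NC library, by a fitted 1.25-fold (edgeR adjusted p = 0.0173). SDF2L1, a lumenal partner of the HSPA5 cycle (chromosome 22, 21642302 to 21644299), stood at 45.9, 36.7 and 53.3 CPM in NC and 36.1, 26.1 and 32.9 CPM in ASO. The lowest NC and the highest ASO library were close to each other, and the fitted fall was 1.43-fold (log2 fold change -0.51, 95% interval -0.92 to -0.11, edgeR adjusted p = 0.0446). This call ended without NC replicate 1, NC replicate 3, ASO replicate 2 or ASO replicate 3, with edgeR adjusted p of 0.103, 0.12, 0.082 and 0.0968.

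DNAJB9 (ERdj4), a J-domain co-chaperone of HSPA5 that is a classic XBP1 target (chromosome 7, 108569874 to 108574850), was the scarcest of the 10. It had 131, 184 and 182 estimated counts in NC and 126, 100 and 109 in ASO, or 2.47, 3.38 and 3.61 CPM against 2.35, 2.00 and 2.18 CPM. All ASO libraries were lower, but NC replicate 1 and ASO replicate 1 were close together. The log2 fold change of -0.53 did not pass the test (95% interval -1.11 to 0.04, edgeR adjusted p = 0.116), so a fall as large as that of HSPA5 and no change both lie within its interval. The locus overlaps THAP5 and PNPLA8 on the opposite strand. THAP5 stood at 8.59 ± 1.99 and 8.92 ± 0.843 CPM in NC and ASO, and PNPLA8 at 12 ± 1.69 and 5.43 ± 2.82 CPM. PNPLA8 was called lower (log2 fold change -1.14, edgeR adjusted p = 0.0264) and THAP5 was not called. No source used here gives the strand setting of the counting, so reads of these genes and of DNAJB9 cannot be told apart.

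HSP90B1 (GRP94), the Hsp90 of the ER, which folds integrins and Toll-like receptors (chromosome 12, 103930107 to 103953931), fell most of the 10 without offsets for GC content and length, and SDF2L1 fell most with them, at a log2 fold change of -1.27 against -0.60. Its level was 563, 731 and 547 CPM in NC and 228, 358 and 277 CPM in ASO. The highest ASO library, replicate 2, lay well below the lowest NC library. The fall was 2.13-fold (log2 fold change -1.09, 95% interval -1.51 to -0.67, edgeR adjusted p = 0.0022), and 3.78% of all genes tested had a lower log2 fold change. C12orf73, which overlaps it on the opposite strand, was at 8.48 ± 0.173 CPM in NC.

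The lectin chaperones CALR and CANX, which bind glucose-tagged glycoproteins, both fell. CALR, the soluble form (chromosome 19, 12938609 to 12944489), was at 2512, 2407 and 2551 CPM in NC and 2091, 1827 and 1996 CPM in ASO. That was a fall of 1.26-fold with no overlap between groups (edgeR adjusted p = 0.00761). CANX, the membrane-bound form (chromosome 5, 179678628 to 179731641), stood at 799, 731 and 745 CPM in NC and 424, 567 and 495 CPM in ASO. The groups were again apart, and the fall was 1.53-fold (edgeR adjusted p = 0.00316).

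Of the disulfide isomerases, PDIA3 fell and PDIA4 was not called. PDIA3 (ERp57), which acts on glycoproteins held by CALR and CANX (chromosome 15, 43746408 to 43773279), was at 502, 623 and 518 CPM in NC and 383, 497 and 351 CPM in ASO. The highest ASO and the lowest NC library nearly met. The fitted fall was 1.33-fold (log2 fold change -0.42, 95% interval -0.75 to -0.08, edgeR adjusted p = 0.0457). It passed with ASO replicate 2 left out (edgeR adjusted p = 0.0054) but not without NC replicate 1, 2 or 3 or ASO replicate 1 or 3 (0.074, 0.17, 0.0783, 0.115 and 0.148), nor with library totals as the scaling or with counts divided by 4 (0.0538 and 0.0508). PDIA3 has 2 annotated pseudogene copies, whose share of its reads was not analysed here.

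PDIA4 (ERp72; chromosome 7, 149003062 to 149028662) had 808, 812 and 586 CPM in NC and 659, 593 and 632 CPM in ASO. NC replicate 3 lay below all ASO libraries, while the other NC libraries lay above them. The log2 fold change was -0.23 (95% interval -0.53 to 0.07, edgeR adjusted p = 0.186). Without NC replicate 3 it was -0.38 and passed (edgeR adjusted p = 0.00929).

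XBP1, the transcription factor of the IRE1 branch (chromosome 22, 28794555 to 28800597), was the single member called higher, and its libraries varied widely. Its level was 73.4, 34.5 and 68.9 CPM in NC and 145, 137 and 69.5 CPM in ASO. ASO replicates 1 and 2 stood above every NC library, ASO replicate 3 was level with NC replicates 1 and 3, and NC replicate 2 was the lowest. The fitted rise was 1.99-fold (log2 fold change 0.99, 95% interval 0.19 to 1.80, edgeR adjusted p = 0.0473). The call held without ASO replicate 3 (edgeR adjusted p = 0.0207) and ended without any other library: NC replicates 1, 2 and 3 gave 0.0553, 0.122 and 0.0841, and ASO replicates 1 and 2 gave 0.177 and 0.176. Over all 17 alternatives the call held in 5, among them DESeq2 (adjusted p = 0.00403). It ended in limma-voom (adjusted p = 0.0743) and when genes with low counts were kept (edgeR adjusted p = 0.0906). Upper-quartile scaling, library totals, a filter at a mean of 10 counts and the replicate block also ended it (edgeR adjusted p = 0.0502, 0.0529, 0.0546 and 0.173). The counts are per gene, so the spliced and unspliced forms of XBP1 mRNA cannot be told apart.

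Ratios between members were compared within each library. HSP90B1 stood at 0.375, 0.469 and 0.366 times the CPM of HSPA5 in NC and at 0.233, 0.331 and 0.279 times in ASO, without overlap between the groups. The ratio of XBP1 to HSPA5 was 0.0489, 0.0222 and 0.0461 in NC and 0.149, 0.126 and 0.0702 in ASO, also without overlap. For CANX over CALR and PDIA3 over PDIA4 the groups overlapped, with means of 0.305 ± 0.0130 and 0.758 ± 0.131 in NC and of 0.254 ± 0.0541 and 0.658 ± 0.156 in ASO (SD, n = 3). In exact two-sided permutation tests of the log2 ratios, p was 0.1 for the first 2 ratios and 0.3 and 0.4 for the others, or 0.2, 0.2, 0.4 and 0.4 after Benjamini-Hochberg adjustment over the 4 ratios. With 3 against 3 libraries 0.1 is the smallest p this test allows. The 4 ratios were chosen after the values were seen. Between HSP90B1 and HSPA5, fitted log2 fold changes of -1.09 and -0.58 became -0.60 and -0.37 with offsets for GC content and length.

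**Figure D2:**
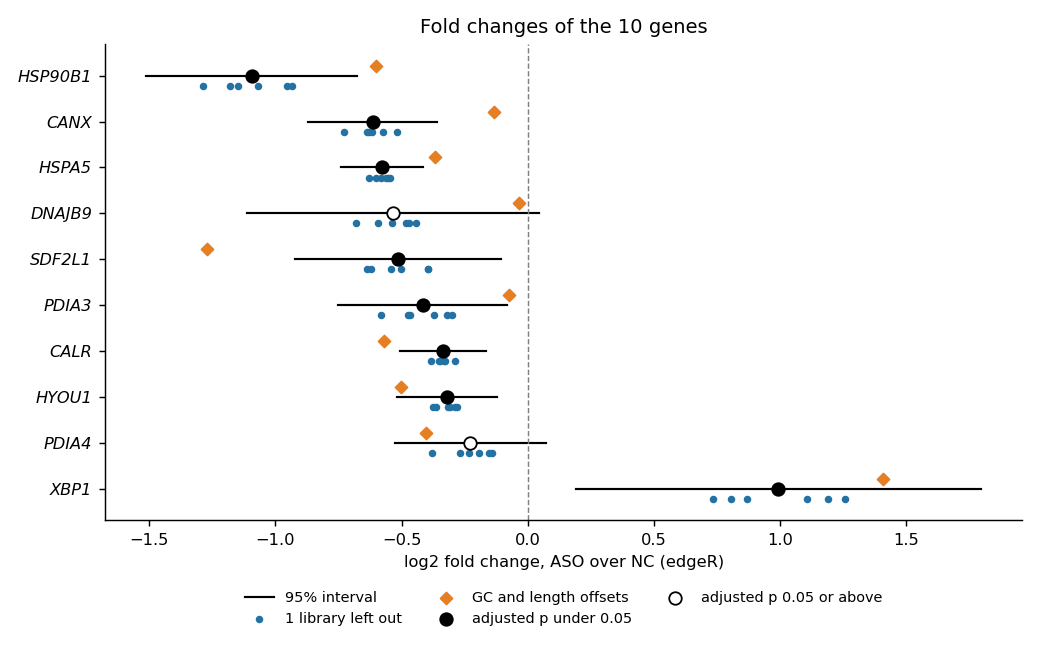
Log2 fold changes of ASO over NC for the 10 genes, with 95% intervals (lines), the values with 1 library left out (small points) and those with offsets for GC content and length (diamonds). The 9 folding genes lie left of 0 and XBP1 right of it at 0.99; open circles mark DNAJB9 and PDIA4, which were not called.

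GC content moved with both the groups and the replicates. Across 12445 genes, log2 fold changes rose with the GC content of the longest transcript (Spearman rho 0.38, across genes, which are not independent). Within each group, replicate 2 leaned to AT-rich genes, with rho between its deviations from the group mean and GC content of -0.59 in NC and -0.68 in ASO, against 0.23 to 0.58 in the other 4 libraries. HSP90B1, PDIA3 and HSPA5, at 41.2%, 43.8% and 46.0% GC, were highest in replicate 2 of both groups. SDF2L1 and CALR, at 65.5% and 53.9% GC, were lowest in replicate 2 of both groups. HYOU1 and PDIA4, at 55.2% and 53.0% GC, were lowest in replicate 2 in ASO but not in NC. Other AT-rich members did not follow this order in both groups: CANX and XBP1, at 41.6% and 41.5% GC, were lowest in NC replicate 2, and DNAJB9, at 40.4% GC, was lowest in ASO replicate 2. A fit with offsets that remove the trends with GC content and length kept the direction of all 10 and called 6 of them lower. HSPA5 then stood at -0.37, HYOU1 at -0.50, CALR at -0.57, HSP90B1 at -0.60 and SDF2L1 at -1.27, all called. The calls of CANX and PDIA3 ended, at -0.13 and -0.073 (edgeR adjusted p = 0.234 and 0.471), and DNAJB9 was at -0.035. PDIA4, at 53.0% GC, was called at -0.40 (edgeR adjusted p = 0.0475), and XBP1 stood at 1.41 (edgeR adjusted p = 0.0332).

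The promoter windows of 7 of these genes hold a letter pattern that is rare over all windows. The ER stress response element (ERSE), known as the element through which NF-Y and ATF6 or XBP1 act, was searched as CCAAT, 9 bases of any kind and CCACG. ERSE-II was searched as ATTGG, 1 base of any kind and CCACG. Both strands were searched in RefSeq windows of 250 bases before to 50 after each start (GRCh38.p14), which were matched by symbol for 9 of the 10 genes. PDIA3 had no match. ERSE was found in HSPA5, HSP90B1, CALR, CANX and XBP1, and ERSE-II in HYOU1 and SDF2L1. Over all 35116 windows of that length, 0.0769% held ERSE and 0.0541% ERSE-II. Counted per gene, 0.1524% of tested genes with a window held ERSE and 0.1255% ERSE-II, members included. The stretches below show each match with its flanks, read along the motif, with the fixed letters of the motif in capitals:
HSPA5, ERSE at -66 to -48 (chr9:125241386-125241414, minus strand): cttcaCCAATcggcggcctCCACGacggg
HSP90B1, ERSE at -194 to -176 (chr12:103930211-103930239, plus strand): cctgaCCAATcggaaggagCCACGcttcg
HSP90B1, ERSE at -89 to -71 (chr12:103930316-103930344, minus strand): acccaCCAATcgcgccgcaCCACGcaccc
CALR, ERSE at -225 to -207 (chr19:12938379-12938407, minus strand): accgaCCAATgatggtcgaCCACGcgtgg
CANX, ERSE at -151 to -133 (chr5:179698773-179698801, plus strand): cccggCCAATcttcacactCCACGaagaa
XBP1, ERSE at -52 to -34 (chr22:28800598-28800626, minus strand): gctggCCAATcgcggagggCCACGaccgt
HYOU1, ERSE-II at -185 to -175 (chr11:119057371-119057399, plus strand): cggcctgggATTGGaCCACGtcacggggc
HYOU1, ERSE-II at -79 to -69 (chr11:119057265-119057293, plus strand): cgcgtactcATTGGaCCACGtcccaggcc
SDF2L1, ERSE-II at -188 to -178 (chr22:21642105-21642133, minus strand): agggttttgATTGGtCCACGcttccgagg

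Positions give the motif's first and last base counted from the annotated start at 0, and coordinates give the printed stretch. The capital letters are fixed by the search, the spacer between them differs from match to match, and each printed match lies upstream of the RefSeq start it is counted from. The gene positions given above are those of the deposited table and can begin elsewhere. HSP90B1 and CANX begin there before the RefSeq starts used here (103930410 and 179698929), so their matches lie inside those gene positions. HSP90B1 and HYOU1 have 2 matches each. CANX has 4 annotated starts, and the same match falls in 3 of its windows. In window 3 that match spans the start, at -9 to 9. DNAJB9 and PDIA4 have no match to either pattern in these windows. The shorter XBP1-type element UPRE, TGACGTGG, was found in HYOU1, where it overlaps the ERSE-II at -185, and in 0.729% of all windows. A match is a string of letters, and binding was not measured.

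**Figure D3:**
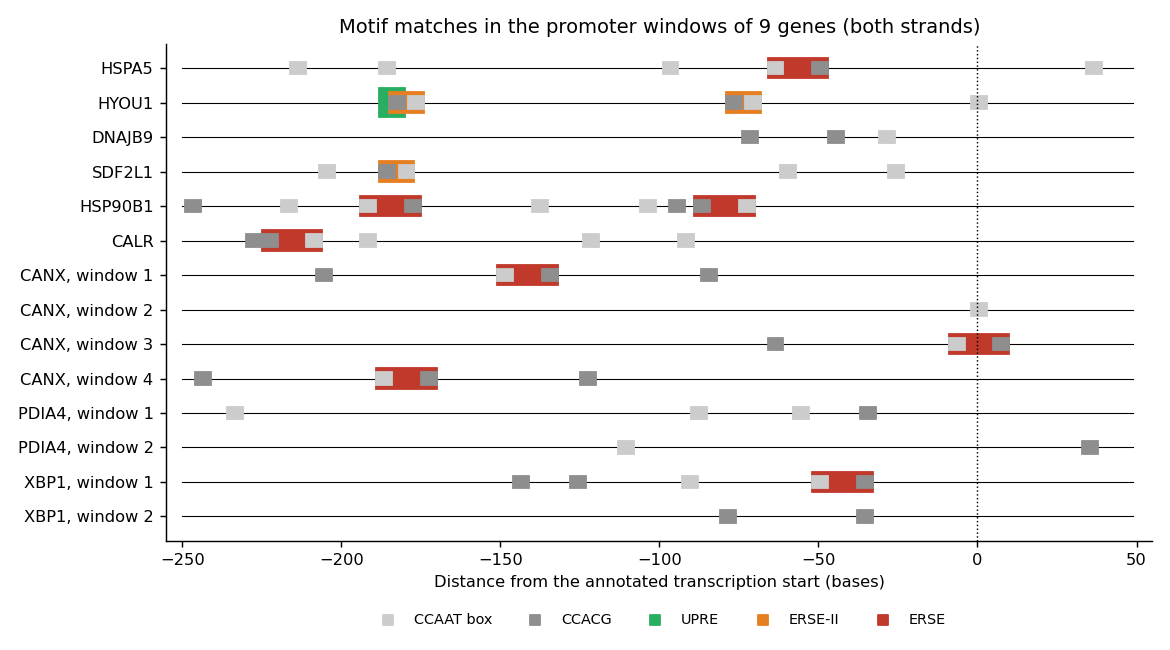
Matches to ERSE, ERSE-II, UPRE and their parts CCAAT and CCACG on either strand, by distance in bases from the annotated start, with 1 line for each promoter window of 9 genes. Full elements are seen in 7 genes, while DNAJB9 and PDIA4 show CCAAT and CCACG only.

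Outside the members, genes that carry these letters were called lower in a share near that of all genes. Among tested genes with a window (11154), 31 held ERSE or ERSE-II, of which 11 were called lower and 5 higher. Of these, 7 are the members above, 6 of them lower and XBP1 higher. Of the other 24, 5 were called lower, which is 20.8% against 19.9% of all tested genes with a window, 4 were called higher, and the median log2 fold change was -0.058. They include PDIA6, an isomerase, which fell at -0.37 (edgeR adjusted p = 0.00282). Not called were CRELD2, a lumenal protein induced by ER stress, at -0.12, and HERPUD1, of ER-associated degradation, at 0.20. SERP1 and FICD, the AMPylator of HSPA5, were at -0.38 and 0.66 without passing (edgeR adjusted p = 0.0511 and 0.0506). CRELD2, HERPUD1, SERP1, FICD and, below, P4HB were named after their values were seen.

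The rest of the folding and secretory pathway was read from 7 lists with 153 genes, of which 149 were tested. These lists too were chosen with earlier results of these data known. Over all lists, 46 were called lower, 22 higher and 81 not called, with a median log2 fold change of -0.20. That median was -0.086 for all genes at a mean of 10 CPM or more. The shares called lower and higher, 30.9% and 14.8%, stand against 19.1% and 26.8% of all genes tested and 24.2% and 21.2% of those at a mean of 10 CPM or more. Among the PDI family and oxidative folding genes, 4 of 18 fell and 2 rose, and the 22.2% that fell are near these background shares. DNAJC10 (ERdj5), a reductase with a J-domain, fell 2.36-fold from 74.3 ± 9.31 to 31.5 ± 5.04 CPM, ERP44, which retains proteins through their thiols, fell 1.46-fold, and PDIA6 fell 1.29-fold. QSOX1, a sulfhydryl oxidase, rose 1.32-fold, and the other riser of this list averaged only 1.74 CPM over the 6 libraries. P4HB, the founding member of the PDI family, was at 0.0065 on the log2 scale and was not called (edgeR adjusted p = 0.96).

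HSPA5 co-chaperones and other folding factors fell in 9 of 25 and rose in 2. The 36.0% that fell stand against 24.2% of all genes at a mean of 10 CPM or more. Over the 17 alternatives the count that fell ran from 5 to 12. RCN2, a calcium-binding lumenal protein, fell 1.93-fold, SEC63, the J-domain protein of the translocon, 1.63-fold, and DNAJC3 (p58IPK) 1.56-fold. DNAJC25 and the prolyl isomerase FKBP11 rose 1.70-fold and 1.28-fold. Of 17 genes of N-glycan processing, 5 fell and 0 rose in edgeR, DESeq2 and limma-voom alike, with 0 higher at an unadjusted p under 0.05. The 29.4% of this list that fell are near the 24.2% of all genes at a mean of 10 CPM or more. STT3B, a catalytic subunit of oligosaccharyltransferase, fell 1.90-fold, OSTC, another of its subunits, 1.59-fold and the cargo lectin LMAN1 1.57-fold.

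Genes for protein entry and early export fell in 17 of 39 and rose in 1, with a median of -0.37. The 43.6% that fell stand against 24.2% of all genes at a mean of 10 CPM or more. This excess depended on the fit, as the count that fell ran from 10 to 22 over the 17 alternatives. With the GC and length offsets, SEC23A and SEC11C, named next, were no longer called (edgeR adjusted p = 0.0771 and 0.257). SEC23A and SEC24D, of the COPII coat, fell 1.82-fold and 1.68-fold, and SEC11C, of the signal peptidase, 1.66-fold. SEC24A, also of COPII, rose 1.66-fold. Of 28 genes of ER-associated degradation, 8 fell and 3 rose. The 28.6% that fell are near the 24.2% of all genes at a mean of 10 CPM or more. UBXN4, ERLEC1 and FAM8A1 fell 1.92-fold, 1.66-fold and 1.57-fold, and the ubiquitin-conjugating enzyme gene UBE2J2, SELENOS and EDEM1, which trims mannose, rose 1.91-fold, 1.29-fold and 1.27-fold.

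The stress sensors did not move alike. ERN1, which encodes IRE1, the kinase and nuclease that splices XBP1 mRNA, was at 4.91, 3.67 and 4.30 CPM in NC and 11.6, 12.5 and 10.8 CPM in ASO. These groups were far apart, and the rise was 2.71-fold (edgeR adjusted p = 0.000603). RTCB, the ligase that joins the cut XBP1 mRNA, fell 1.29-fold. ATF6, with 69.6 ± 11.1 CPM (NC) and 48.9 ± 11.2 CPM (ASO), was not called (edgeR adjusted p = 0.0577). It was called lower in DESeq2 and limma-voom (adjusted p = 0.0331 and 0.0453) and without ASO replicate 2 (edgeR adjusted p = 0.0176), while with the GC and length offsets its log2 fold change was -0.0017 (edgeR adjusted p = 0.99). Its relative ATF6B and the protease MBTPS1, which cuts ATF6, fell 1.46-fold and 1.45-fold. EIF2AK3 was at 9.30 ± 1.16 and 11.7 ± 2.39 CPM (edgeR adjusted p = 0.215). Of 8 genes on this list, 3 fell and 2 rose, and the riser other than ERN1 averaged only 0.80 CPM over the 6 libraries.

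Genes of the PERK and ATF4 branch went the other way from the chaperones. Of 14, 12 rose and 0 fell in edgeR, DESeq2 and limma-voom alike, with 0 lower at an unadjusted p under 0.05, and their median log2 fold change was 1.75. The 85.7% that rose stand against 26.8% of all genes tested and 21.2% of those at a mean of 10 CPM or more. CHAC1, which degrades glutathione, rose 27.7-fold, and PPP1R15A, which restores translation, and the transcription factor ATF3 rose 14.5-fold and 12.6-fold.

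**Figure D4:**
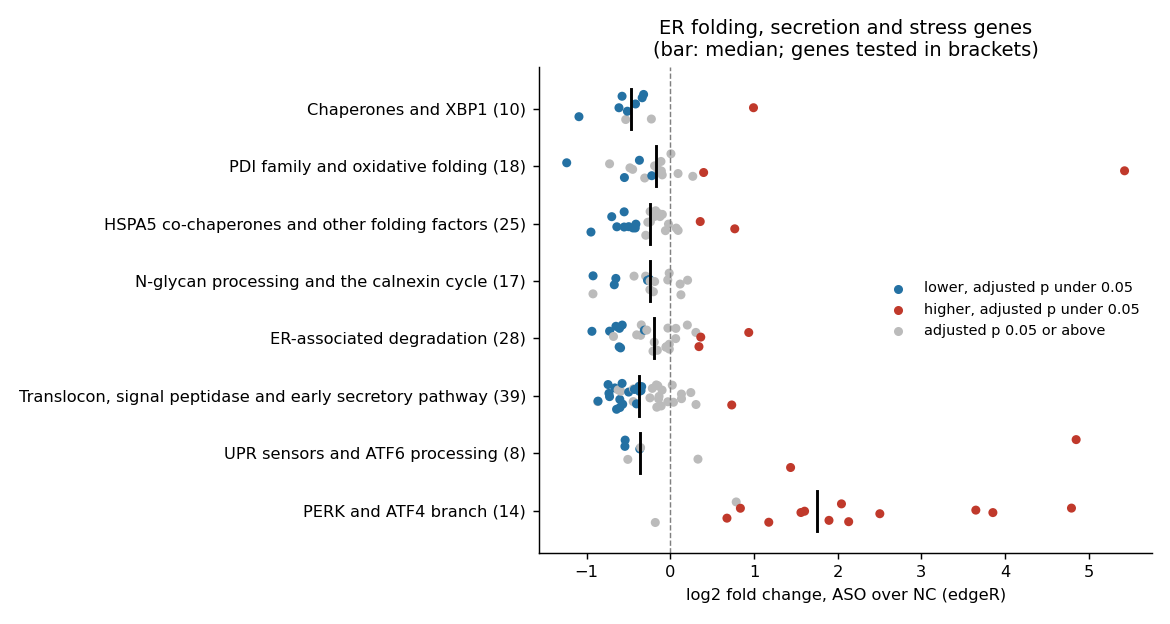
Log2 fold changes of ASO over NC for the 10 genes and the 7 lists, with 1 point per gene tested, blue for lower, red for higher and grey for not called, and black bars for medians. The medians of the first 7 rows lie at or below -0.17, and that of the PERK and ATF4 branch at 1.75.

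Apart from the members, the cell type markers and the overlapping genes, 37 called genes are named here. Of these, 22 were called with each library left out in turn and 11 were no longer called with the GC and length offsets. The latter were DNAJC3, ERLEC1, ERP44, FAM8A1, LMAN1, PDIA6, SEC11C, SEC23A and SEC63 of the lists and COX7C and SMURF1 of the paragraph that follows. EIF2AK3 was called higher with the offsets (edgeR adjusted p = 0.0162). The calls that ended without at least 1 library were those of DNAJC25, DNAJC3, EDEM1, ERLEC1, ERP44, FAM8A1, FKBP11, OSTC, QSOX1, SEC63, SELENOS, SMURF1, STT3B, UBXN4 and ZNF45, with largest edgeR adjusted p values of 0.0506 (STT3B) to 0.123 (SMURF1). Over all lists, the count of lower genes was 28 without NC replicate 1, 30 without NC replicate 2 and 27 without ASO replicate 3.

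The profiles most like those of HSPA5 and XBP1 were sought by the distance between centred log2 CPM over the 6 libraries, among 9102 other genes at a mean of 10 CPM or more. Nearest to HSPA5 were ANP32A, COX7C, MCM4 and ABCC2, at distances of 0.0443 to 0.0685. ANP32A stood at 311, 333 and 310.2 CPM in NC and 204, 224 and 209 CPM in ASO. The other 3 fell by 1.51-fold to 1.53-fold. No member was among the 4 nearest to HSPA5. Nearest to XBP1 were SMURF1, FBXL12, EME2 and ZNF45, at 0.698 to 0.888. SMURF1 and FBXL12 shared the low ASO replicate 3, with SMURF1 at 126, 124 and 57.7 CPM in ASO against 61.6, 48.9 and 54.1 CPM in NC. The genes nearest to XBP1 were thus farther from it than those nearest to HSPA5 were from HSPA5.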

How the data were processed

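Per the submitters' processing notes, FastQC, STAR, StringTie, DESeq2 and build hg38 were used; no source used here gives versions, roles, annotation or strand setting. The authors deposited estimated counts per gene symbol (expected counts, not scaled to depth), which were whole numbers already. The most frequent value above 0 is 4, as when 1 fragment is worth about 4 counts, giving 12.3 to 13.7 (in units of 1e6) fragments a library (totals of 49136502 to 54905215 counts).

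Genes were kept by filterByExpr (minimum count 10, minimum total 15), leaving 14062 of 19655. Libraries were scaled by TMM and edgeR 4.0.16 (with limma 3.58.1 in R 4.3.3) tested ASO against NC by robust quasi-likelihood, and Benjamini-Hochberg adjustment covered every gene tested. Standard errors and 95% intervals come from the log2 fold change and the F statistic. The fit was tested on simulated data. Gene lengths (union of exons), GC content (longest transcript) and strands come from GENCODE v29 (GRCh38), matched for 19520 genes, and positions of genes from the deposited table. The offsets for GC content and length are per-library spline trends (5 degrees of freedom each), centred at their median.

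The text names the 10 members, EIF4A1, the 3 sensors, up to 3 genes per list and direction (called, mean of 5 CPM or more, groups apart) and 4 nearest genes each for HSPA5 and XBP1. Members and lists were chosen with earlier results of these data known. Alternatives were RLE, upper-quartile or no scaling, no filter or one at a mean of 10 counts, limma-voom, DESeq2 1.42.0, counts divided by 4, GC and length offsets, a block for the replicate number, and each library left out in turn.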

Additional observations from a re-analysis of the deposited data

How the results depend on the processing

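Of the 10 genes, 5 (HSPA5, HYOU1, DNAJB9, HSP90B1, CALR) kept their side of the threshold under all 17 alternatives, and no member changed direction. Members called lower numbered 5 to 7. XBP1 lost its call with upper-quartile scaling (log2 fold change 0.97), library totals (0.98), no filter (0.99), a mean of 10 counts (0.99), limma-voom (1.0), the replicate block (0.99) and the block with offsets (1.44), so that members called higher were 0 there. PDIA3 lost its call with library totals (-0.43) and counts divided by 4 (-0.39). With the offsets, CANX and PDIA3 lost theirs (-0.13 and -0.073, and -0.13 and -0.076 with the block as well), and PDIA4 gained one (-0.40). With a library left out, members ranged from -0.64 to -0.39 (SDF2L1), -0.58 to -0.30 (PDIA3), -0.38 to -0.14 (PDIA4) and 0.73 to 1.26 (XBP1), members called higher from 0 to 1, and genes of all lists called lower from 27 to 66. Genes of all lists called higher were 22, and 36 with the offsets, with or without the block. ERP44 changed direction with the offsets (0.061, and 0.063 with the block). With the longest transcript as length, levels in NC were 77.0 (HYOU1), 52.4 (SDF2L1), 202 (HSP90B1), 1308 (CALR), 178 (CANX), 147 (PDIA3) and 27.1 (XBP1) CPM per kilobase, CANX passed PDIA3 in NC and HYOU1 passed XBP1 in ASO. By list, counts of lower genes ran over the alternatives from 2 to 8 (PDI, 4 as reported), 5 to 12 (co-chaperones, 9), 3 to 9 (N-glycan, 5), 3 to 14 (degradation, 8), 10 to 22 (entry and export, 17), 3 to 5 (sensors, 3) and 0 (PERK), and of higher genes from 1 to 4 (2), 0 to 3 (2), 0 to 2 (0), 2 to 7 (3), 1 to 5 (1), 2 to 4 (2) and 12 to 13 (12). The cause of these shifts was not tested. Whether replicate numbers pair the libraries is not stated, and the values here cannot settle it. Same-numbered deviations correlated at 0.076, 0.30 and 0.044 for replicates 1 to 3. NC replicate 2 and ASO replicate 2 correlated best with each other, and no other library correlated best with its own number. With the replicate block, 67 list genes were called lower against 46, and among members it ended the call of XBP1 alone (adjusted p = 0.173). The edgeR adjusted p with the block was 0.00274 for PDIA3 and 0.00799 for SDF2L1, against 0.0457 and 0.0446 without it. For CANX it was 0.00848 against 0.00316. DNAJB9, with 100 to 184 counts or 25 to 46 fragments at 4 counts each, is the member with the fewest reads, and its adjusted p with counts divided by 4 was 0.115. The part of depth in its missing call was not tested.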
